A study of Rattus norvegicus with 10 samples.

Results

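The maturity of the insulin-producing β-cell is commonly read from a small set of genes, and 9 of them were followed here in sorted rat β-cells after knockdown of the transcriptional repressor Scrt1. The set comprised Ucn3, Npy, Dlk1, Gast, Aldh1a3, Neurog3, Sox9, Fev and Tph1. It was fixed by name, and the values of each gene were summed over its Ensembl transcripts in every library, which gave 9 genes with 10 transcripts out of 23918 genes with 31715 transcripts. All libraries came from adult Sprague-Dawley rat islets. The cells were dispersed, sorted for β-cells by their autofluorescence (FACS), and transfected with Lipofectamine RNAiMAX. The siScrt1 group received a pool of 4 siRNAs against rat Scrt1 and the siCtrl group a negative control siRNA. RNA was collected 48 h later. Each group had 5 libraries, named siCtrl replicates 1 to 5 and siScrt1 replicates A to E. The labels do not state that the libraries came from separate animals or cultures, so p-values measure the spread between these libraries only.

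β-cells arise from endocrine progenitors in which the transcription factor Neurog3 is switched on for a short time, within an epithelium that carries Sox9. After birth they gain glucose-responsive secretion and the peptide urocortin 3, while genes of the newborn cell are turned down. Several of those genes return when β-cells lose their identity under metabolic stress, and Aldh1a3 is used as a mark of that state.

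Library totals ran from 11901344 to 17444034 reads, recovered from the deposited values by undoing the scaling between libraries. Scrt1 had 11.7 to 18.2 CPM (reads relative to the library total, scaled to 1000000 reads) in siCtrl and 1.57 to 5.55 CPM in siScrt1. The groups did not overlap, and the log2 fold change, on the scale log2(scaled value + 0.5) used throughout, was -2.06 (SE 0.308, adjusted p = 0.00618, limma). The β-cell label fitted the defining markers. Ins1, an insulin gene, averaged 63431 CPM under siCtrl and 68221 CPM under siScrt1, and the other insulin gene, Ins2, averaged 49486 and 54803 CPM (adjusted p = 0.893 and 0.853, limma). Markers of 11 cell types were summed per library, and no sum passed the test between the groups (lowest exact two-sided permutation p = 0.230, adjusted p over the 11 sums = 0.960). The α-cell sum was mostly glucagon and ran from 213 to 582 CPM in siCtrl and from 211 to 464 CPM in siScrt1. The summed mesenchymal markers stood apart in siCtrl replicate 4 and siScrt1 replicate D. When either library was left out on its own, 0 of the 4 genes with enough reads for the test (Ucn3, Npy, Tph1 and Sox9) was called. Leaving out both at once was not tried. Fewer cells of a type and less RNA per cell cannot be told apart in such bulk libraries.

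The first question was whether any of the 9 genes differed between siScrt1 and siCtrl. None passed the threshold (adjusted p under 0.05 over 12941 tested genes, limma), against 1.05% of all tested genes. Only Ucn3, Npy, Tph1 and Sox9 had enough reads to be tested. Of these 4, 0 had an unadjusted p under 0.05, and limma-voom called 0 as well. Over all 9 genes the CPM of the groups overlapped, whereas 2.96% of the tested genes did not overlap. With shares this low over all genes, 0 of 4 is not a result particular to the set.

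**Figure D1:**
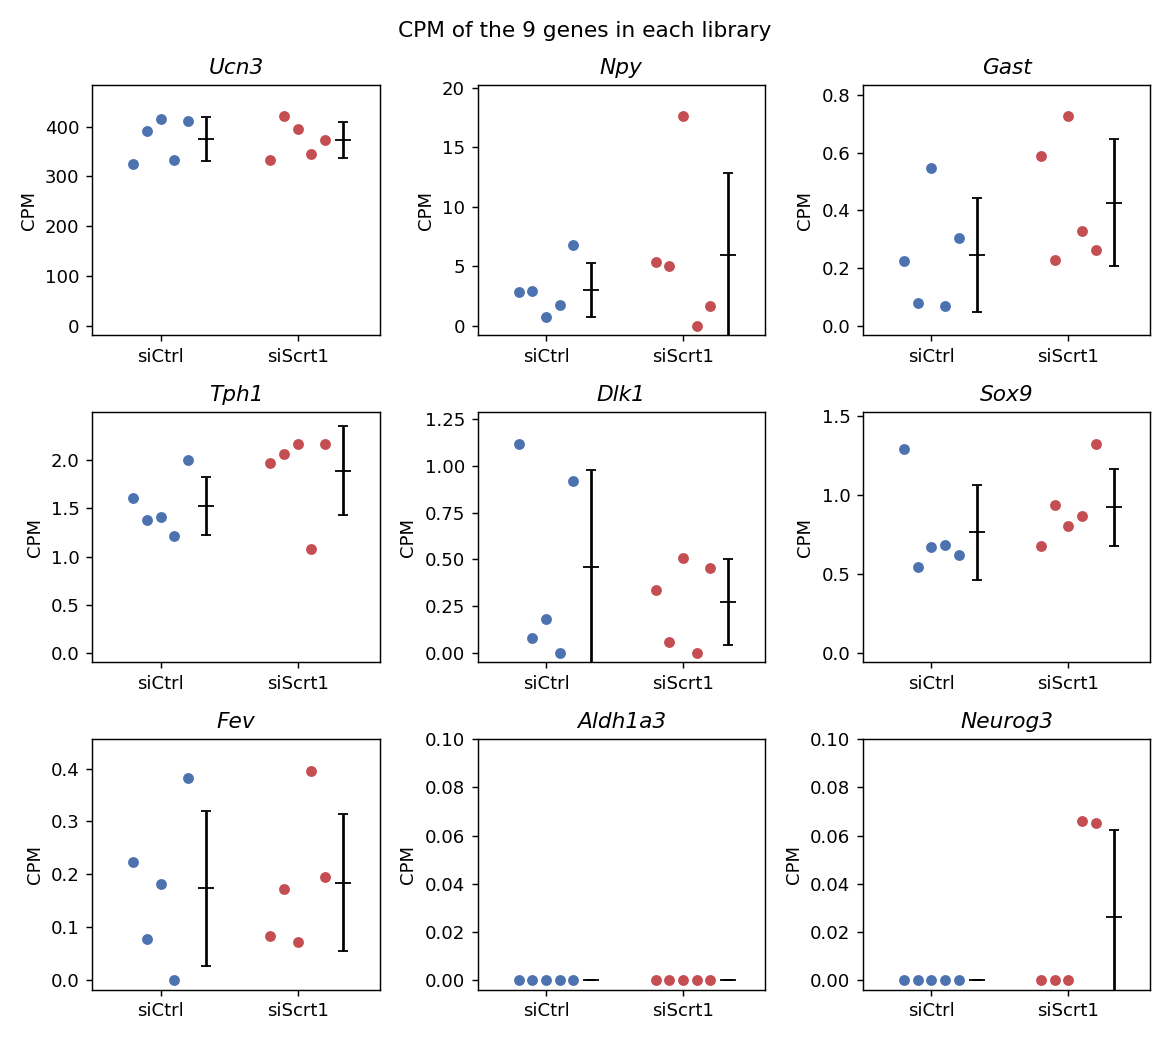
CPM of each of the 9 genes, with 1 point for each of the 5 siCtrl and 5 siScrt1 libraries, in the order of the library names. Horizontal ticks and bars are the mean ± SD of the group, and bars are cut at the lower edge of the panel. Each panel has its own vertical scale. The groups overlap in every panel, the highest Ucn3 value is 421 CPM, and Aldh1a3 is at 0 throughout.

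The levels of the 9 genes were spread widely. On the TPM scale, which corrects for transcript length, Ucn3 averaged 1058 ± 136 TPM in siCtrl (SD, n = 5) and ranked 30 among the 23918 genes. Npy followed at 6.41 ± 4.80 TPM, Gast at 0.893 ± 0.751 TPM, Tph1 at 0.362 ± 0.0747 TPM, Dlk1 at 0.344 ± 0.404 TPM, Sox9 at 0.210 ± 0.0912 TPM and Fev at 0.118 ± 0.0984 TPM. The Npy value is that of its own row, which shared reads with another entry described with Npy further on. Aldh1a3 and Neurog3 were at 0 in all siCtrl libraries. Ucn3 was the only gene whose range over the siCtrl libraries lay apart from that of the next gene in the order. All other neighbours overlapped, and Tph1 and Dlk1 exchanged places when siCtrl replicate 2, 3 or 4 was left out.

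Ucn3 encodes urocortin 3, a peptide of the corticotropin-releasing factor family that mature β-cells store and release with insulin. It had 325, 392, 416, 333 and 412 CPM in the siCtrl libraries 1 to 5. The siScrt1 libraries, from A to E, held 334, 421, 396, 345 and 373 CPM. The lowest and the highest values lay within 1.30-fold of each other over the 10 libraries, and no library of either group stood apart. The group means were 375 ± 43.7 CPM and 374 ± 35.7 CPM (SD over 5 libraries each). The log2 fold change was 0.03 (SE 0.0998, 95% interval -0.19 to 0.25, adjusted p = 0.941, limma). At 3974 to 7340 reads per library, the reads behind Ucn3 were many, and its coefficient of variation was 11.6% in siCtrl and 9.56% in siScrt1.

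Within the groups, the deviations of Ucn3 from the group mean were most like those of Mt-cyb (Pearson r = 0.976) and Mt-co1 (r = 0.974), both genes of the mitochondrial genome, over 10 libraries. The compared genes share the scaling and the depth of each library, and the values are a description only. Of the other genes of the urocortin and corticotropin-releasing factor system, 1 of 6 had enough reads. This was Crhbp, which encodes the binding protein of the family, at 2.84 CPM in control and 2.94 CPM in knockdown libraries (adjusted p = 0.901, limma).

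Npy encodes neuropeptide Y, which newborn islet cells and some dedifferentiated β-cells make. Its row in the table held 2.86, 2.95, 0.753, 1.72 and 6.75 CPM in the siCtrl libraries 1 to 5. The siScrt1 replicates A to E held 5.36, 5.03, 17.6, 0 and 1.66 CPM. The highest and the lowest value were both in siScrt1, in replicates C and D, and the siCtrl values lay between them. The log2 fold change was -0.25 (SE 1.30, 95% interval -3.06 to 2.56, adjusted p = 0.964, limma). The mean CPM was higher in siScrt1 although the fold change was negative, since the library at 0 weighs more on the log scale. Without siScrt1 replicate D the log2 fold change was 1.21, and without siCtrl replicate 5 it was 0.11.

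The Npy row could not be read alone. Its reads were not whole numbers in 9 of the 10 libraries, as happens when kallisto divides reads that fit several transcripts. Among all 31715 transcripts, 1 completed the Npy values to whole numbers in every library (within 0.01 reads) without being whole itself. It belonged to LOC100912228 (ENSRNOG00000046449), an entry without a gene name. The LOC100912228 transcript is 575 bases long and the Npy transcript 607 bases, with effective lengths of 376 and 408 bases in the table. Npy took 0 to 14.1% of the joint reads, and LOC100912228 took the rest. In 6 of the 9 libraries with any Npy reads, the Npy value was a whole multiple of 12.75 reads, which equals 408 divided by the difference of 32 between the effective lengths. The multiple was 3 in siCtrl replicate 1 and 19 in siScrt1 replicate C, the highest of these. The values of the Npy row thus moved in steps of many reads, and a single step separated libraries with low values.

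**Figure D2:**
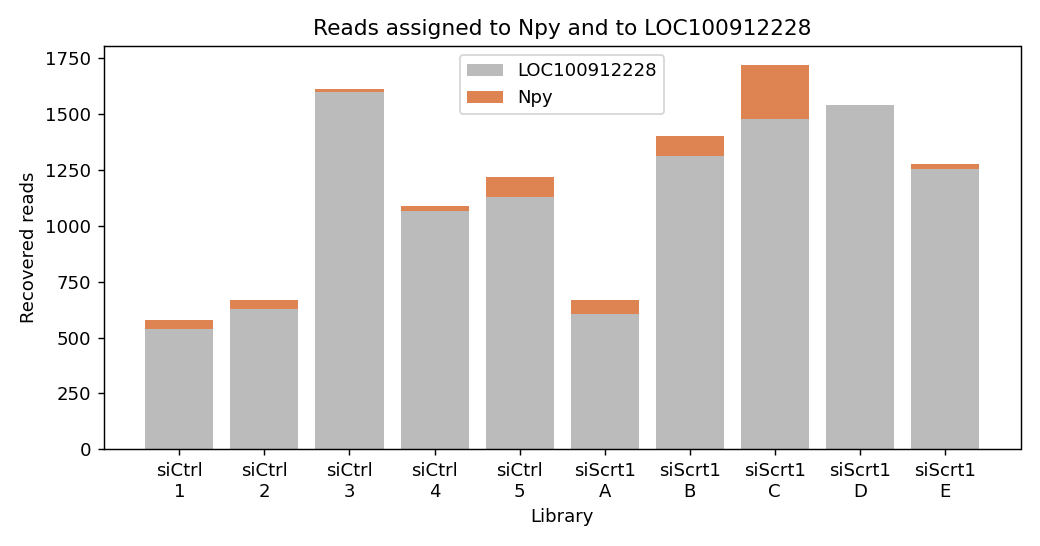
Recovered reads assigned to LOC100912228 (grey) and to Npy (orange) in each of the 10 libraries. LOC100912228 holds most of the reads in every library, the Npy part is largest in siScrt1 replicate C with 242 reads, and siScrt1 replicate D has 0 Npy reads of 1543.

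Added together, Npy and LOC100912228 had 43.2, 51.4, 98.0, 73.8 and 93.0 CPM in the siCtrl libraries 1 to 5. The sum in siScrt1 A to E was 56.3, 80.4, 125, 102 and 83.4 CPM. The siScrt1 values reached higher and the siCtrl values lower, but 3 of 5 siScrt1 libraries lay within the siCtrl range. The group means were 71.9 ± 24.4 CPM and 89.3 ± 25.6 CPM (SD over 5 libraries each). The log2 fold change of the sum was 0.37 (SE 0.244, 95% interval -0.16 to 0.90, adjusted p = 0.616, limma). The sum was higher in siScrt1 in 4 of the 5 pairs of libraries that carry the same number in the table. With this number as a block, the adjusted p of the sum was 0.104 (limma). The addition was chosen after the data were seen, and its interval was narrower than that of the Npy row. Per length, the sum stood at 168 ± 60.7 TPM in siCtrl, still under the lowest Ucn3 value of 912 TPM. Whether LOC100912228 is a second annotation of Npy or a separate gene was not tested, so the Npy level may lie anywhere between its own row at 6.41 TPM and the sum.

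The other genes of the neuropeptide Y family did not pass the test either. The list named 9 genes, of which 5 were tested, Npy included. Npy1r, a receptor of neuropeptide Y, had 1.25 CPM in control and 1.63 CPM in knockdown libraries (log2 fold change 0.47, SE 0.301, adjusted p = 0.604, limma). Ppy, the pancreatic polypeptide of PP-cells, had 11.5 and 12.1 CPM, and Pyy, peptide YY, had 5.64 and 5.48 CPM in siCtrl and siScrt1. The summed PP-cell markers ran from 9.88 to 20.7 CPM in siCtrl and from 10.5 to 23.1 CPM in siScrt1.

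Dlk1, a transmembrane ligand related to the Notch ligands and imprinted in the genome, is made by endocrine cells of the developing pancreas. It had 15, 1, 3, 0 and 12 reads in the siCtrl libraries 1 to 5. Its values in siScrt1 A to E were 4, 1, 7, 0 and 7 reads. Both groups held libraries with no more than 1 read, and the 2 highest counts were in siCtrl. The mean CPM was 0.459 ± 0.520 in siCtrl and 0.272 ± 0.231 in siScrt1 (SD over 5 libraries; permutation, two-sided and exact, p = 0.452, with 0.00794 the smallest p that 5 against 5 allows). The libraries with 0 reads, siCtrl replicate 4 and siScrt1 replicate D, were also the ones with the highest summed markers of mesenchymal cells. Those sums were 16.8 and 30.9 CPM against at most 8.74 CPM in the other libraries. The part of this in Dlk1 was not tested. Of the 6 genes on the list of Dlk1 and its imprinted neighbours, 4 had values in the deposited data, and 0 of these had enough reads for the test.

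Gast encodes gastrin, a peptide hormone that fetal islets and some stressed β-cells express. It had 3, 1, 9, 1 and 4 reads in the siCtrl libraries 1 to 5. In the siScrt1 libraries A to E it had 7, 4, 10, 5 and 4 reads. Every siScrt1 library held at least 4 reads, while 3 of the siCtrl libraries held fewer. Over the group, Gast reached 0.255 CPM in siCtrl (95% Poisson interval 0.151 to 0.402) and 0.408 CPM in siScrt1 (0.275 to 0.582). The means of the libraries were 0.244 ± 0.197 CPM and 0.427 ± 0.219 CPM (SD over 5 libraries; permutation, two-sided and exact, p = 0.206). Gast was higher in siScrt1 in 4 of the 5 same-numbered pairs. Poisson intervals cover counting error only, and those of the groups overlapped. In the fit without a filter on low values, in which 18552 genes were tested, its log2 fold change was 0.93 (SE 0.550, adjusted p = 0.683, limma). Cckar, a receptor of the related hormone cholecystokinin, was the only tested gene of the gastrin and cholecystokinin list, at 99.8 CPM in control and 80.0 CPM in knockdown libraries (log2 fold change -0.31, SE 0.193, adjusted p = 0.589, limma).

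Scrt1 belongs to the Snail superfamily of zinc finger repressors, which bind E-box elements with the core CAGGTG. The promoter windows of the genes were therefore searched for these letters on both strands, where CACCTG is the core on the opposite strand. A window runs from 250 bases before to 50 bases after the transcription start in RefSeq (GRCr8 build), and 8 of the 9 genes had a window, Sox9 being the exception. CAGGTG was present in 2 of these 8, Gast and Tph1, and in 18.8% of all 33469 windows. The related string CAACAGGT lacks the last G of the core and was searched on its own. It was in 0 of the 8 and in 0.774% of all windows. The matches are shown because they are the only ones in the set. Capitals mark the core, and positions are those of its first base relative to the start.
Gast, position -81, chr10:85765125-85765150, plus strand: agtctggcctCACCTGgaaggagggt
Gast, position 38, chr10:85765243-85765265, plus strand: cccagctctgCAGGTGagaaact
Tph1, position 34, chr1:106314580-106314605, minus strand: ctcccgtccgCAGGTGaccctctgaa
A match is a description of letters in the window and not a bound site.

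Aldh1a3, an enzyme that makes retinoic acid from retinal, was at 0 reads in all 10 libraries. A count of 0 allows up to 3 reads, or 0.0424 CPM over the siCtrl libraries and 0.0408 CPM over the siScrt1 libraries. Of all genes, 22.0% were at 0 in every library, while 15 genes that all cells use, such as Actb and Gapdh, were above 0 in all of them. Of the 18 genes on the retinoic acid list, 8 had enough reads and 0 passed the test. Rxra, a retinoid receptor, had the smallest unadjusted p on the list. It averaged 21.7 CPM in control and 26.3 CPM in knockdown libraries (log2 fold change 0.32, SE 0.114, adjusted p = 0.288, limma). The related receptor Rxrb had 21.5 and 23.2 CPM in siCtrl and siScrt1.

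Neurog3, the factor that commits progenitors to the endocrine fate, had 0 reads in each siCtrl library. It had 1 read each in siScrt1 replicates D and E and 0 reads in the others. Both groups were at or under 3 reads, so no fold is given. Fev, a transcription factor of endocrine progenitors and of serotonin neurons, had 3, 1, 3, 0 and 5 reads in the siCtrl libraries 1 to 5. The siScrt1 libraries, from A to E, held 1, 3, 1, 6 and 3 reads. The groups covered nearly the same range, with means of 0.173 ± 0.146 CPM and 0.184 ± 0.130 CPM (SD over 5 libraries; permutation, two-sided and exact, p = 0.905). Dlk1, Gast and Fev were the 3 genes tested in this way.

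Among the 26 listed factors of endocrine progenitors, 17 were tested and 0 passed, with a median log2 fold change of 0.03 against 0.0035 over all tested genes. Mnx1, a homeodomain factor of β-cells, had 22.8 CPM in control and 28.6 CPM in knockdown libraries (log2 fold change 0.36, SE 0.110, unadjusted p = 0.00660, adjusted p = 0.203, limma). Neurod1, which acts downstream of Neurog3 and stays on in adult β-cells, had 343 and 335 CPM, and Pax6, a factor of all islet endocrine cells, had 303 and 285 CPM. Per length, Neurod1 averaged 166 TPM and Pax6 159.7 TPM over the 10 libraries, whereas Neurog3 did not exceed 0.0457 TPM in any of them.

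Sox9, the factor of pancreatic progenitors and duct cells, had 1.29, 0.545, 0.671, 0.685 and 0.620 CPM in the siCtrl libraries 1 to 5. Its values in siScrt1 A to E were 0.679, 0.936, 0.805, 0.867 and 1.33 CPM. Apart from replicate 1, the siCtrl libraries lay at the low end of the siScrt1 range or under it. Sox9 met the filter of 0.70 CPM in 5 libraries only through siCtrl replicate 1 and siScrt1 replicates B to E. It was thus tested mostly because of libraries of the group where it was higher. The log2 fold change was 0.33 (SE 0.318, 95% interval -0.36 to 1.02, adjusted p = 0.749, limma), at 7.07 to 20.3 reads per library. It was 0.54 without siCtrl replicate 1, 0.21 without siCtrl replicate 2 and 0.19 without siScrt1 replicate E. The reads of Sox9 were not whole in any library, so part of them was shared with other transcripts. The summed duct markers ran from 212 to 294 CPM in siCtrl and from 224 to 294 CPM in siScrt1, and the keratin gene Krt7 held most of this sum. The duct markers Krt19, Cftr, Spp1 and Muc1 had mean levels of no more than 2.25 CPM. The part of other cells in the Sox9 level was not tested.

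The list of pancreatic progenitor and duct factors held the gene nearest to the threshold. Of 22 genes 15 were tested, and 13 of them had a positive log2 fold change with a median of 0.14. Tead1, a DNA-binding partner of the growth regulator Yap1, had 14.7, 14.5, 10.7, 13.0 and 16.4 CPM in the siCtrl libraries 1 to 5. In the siScrt1 libraries A to E it had 17.7, 17.1, 17.9, 20.9 and 18.9 CPM. Every siScrt1 library was above every siCtrl library. The log2 fold change was 0.46 (SE 0.10, unadjusted p = 0.000532, adjusted p = 0.0502, limma). With the library number as a block the adjusted p was 0.0382, and over 19 other settings it ran from 0.0382 to 0.149, with 4 of them under the threshold. Pdx1, required for the formation of the pancreas and for insulin transcription, had 198 ± 27.1 CPM in control and 246 ± 27.0 CPM in knockdown libraries (SD over 5 libraries each; log2 fold change 0.35, SE 0.103, adjusted p = 0.176, limma). Krt7 had 215 CPM under siCtrl and 227 CPM under siScrt1.

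Tph1 encodes the enzyme that starts serotonin synthesis, which β-cells raise in pregnancy. It had 1.61, 1.38, 1.41, 1.21 and 2.01 CPM in the siCtrl libraries 1 to 5. The siScrt1 libraries, from A to E, held 1.97, 2.07, 2.17, 1.08 and 2.16 CPM. Replicate D was the lowest of all 10 libraries, and the other 4 siScrt1 libraries lay above 4 of the 5 siCtrl libraries. The log2 fold change was 0.32 (SE 0.257, 95% interval -0.24 to 0.87, adjusted p = 0.693, limma), and it was 0.53 without siScrt1 replicate D. Reads of Tph1 were few, at 16.3 to 36.1 per library, and none of the values was whole. Tph1 is also a gene of mast cells. The mast cell markers Cpa3, Fcer1a and Mcpt2 were at 0 in all libraries, while Ms4a2 and Tpsb2 averaged 0.0289 and 0.0577 CPM in siCtrl. Kit accounted for nearly the whole mast cell sum, with 63.8 CPM under siCtrl and 70.1 CPM under siScrt1. The part of mast cells in the Tph1 level was not tested.

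Of the 20 genes of the serotonin pathway, 8 were tested and 0 passed. Slc18a1, a transporter that loads amines into vesicles, had 11.2 CPM in control and 12.7 CPM in knockdown libraries (log2 fold change 0.23, SE 0.147, adjusted p = 0.599, limma). The monoamine oxidases degrade serotonin. Maob had 335 CPM in both groups, and Maoa had 71.8 CPM under siCtrl and 64.3 CPM under siScrt1. Per length, Maob averaged 129 TPM and Maoa 32.1 TPM over the 10 libraries, above Tph1 at 0.414 TPM.

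**Figure D3:**
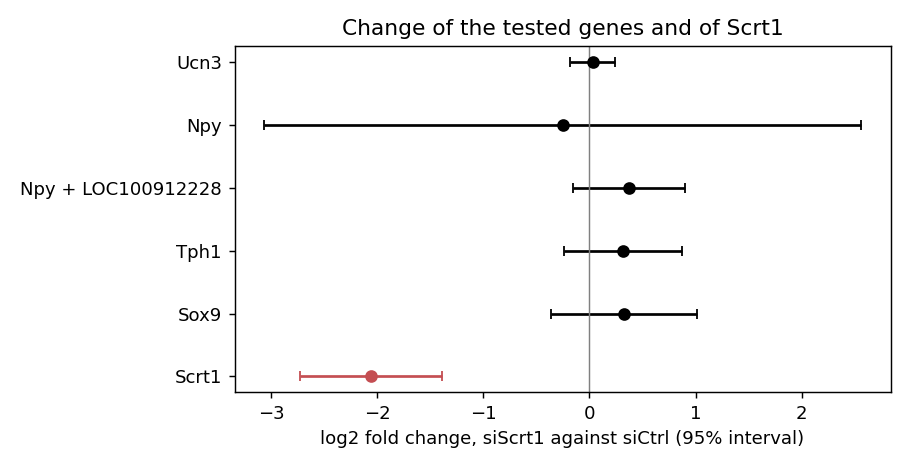
log2 fold change of siScrt1 against siCtrl, with 95% intervals from limma, for the 4 tested genes, for the sum of Npy and LOC100912228, and for Scrt1. The intervals of Ucn3, Npy, the sum, Tph1 and Sox9 include 0, that of Npy alone is the widest, and that of Scrt1 runs from -2.72 to -1.39.

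The broader lists on β-cell maturity held no called gene. Of 23 maturity genes 21 were tested, with 13 positive log2 fold changes and a median of 0.05. Of 21 genes of newborn or dedifferentiated cells, 13 were tested, with 8 positive and a median of 0.07. Serpina10, a serine protease inhibitor, had 3.84 ± 2.91 CPM in control and 1.52 ± 1.10 CPM in knockdown libraries (SD over 5 libraries each; log2 fold change -1.80, SE 1.06, adjusted p = 0.567, limma). Its siCtrl libraries ranged from 0.715 to 8.38 CPM and 1 siScrt1 library was at 0. Gc, the vitamin D binding protein, had 558 and 513 CPM, and Cd81, a membrane protein of immature β-cells, had 347 and 354 CPM in siCtrl and siScrt1. Over all 10 lists, 135 genes besides the 9 were named and 80 tested. Of these 80, limma called 0, while 8 had an unadjusted p under 0.05, against 11.1% of all tested genes, and limma-voom called 0. The groups of 1 of the 80 genes, Tead1, did not overlap, against 2.96% of all tested genes. Neither count over the 80 genes stood above the background. The median log2 fold change over the 80 genes was 0.09, against 0.0035 over all tested genes.

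**Figure D4:**
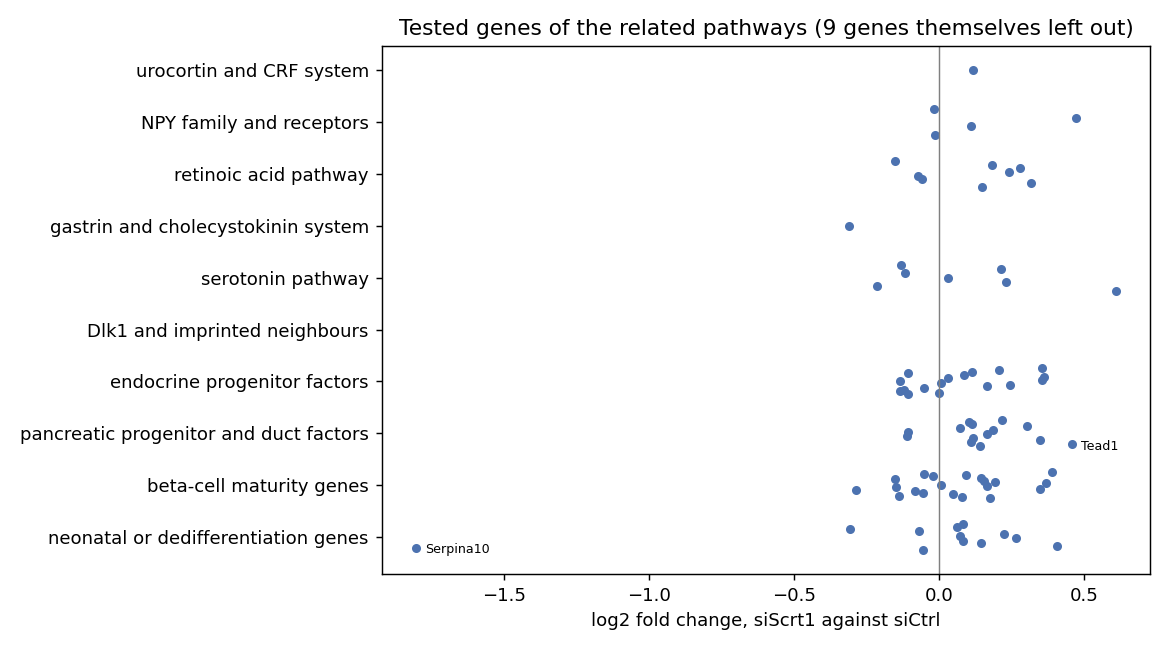
log2 fold change of siScrt1 against siCtrl for each tested gene of the 10 lists, with 1 point per gene and the 9 genes themselves left out. A gene on several lists appears in each, the list of Dlk1 and its neighbours has no tested gene, Tead1 lies at 0.46 and Serpina10 at -1.80.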

How the data were processed

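RNA-seq was analysed in 10 libraries of sorted rat β-cells, 5 per group, grouped by the genotype label. The authors trimmed single-end reads (FastQC, Trimmomatic) and assigned them with kallisto to the rat Rnor6 transcriptome. The deposited estimated counts and TPM values carry a scaling with sleuth that the authors applied across libraries, and were therefore handled as a signal and not as counts. Versions were not given in the sources used here. Division by the value of 1 read in each library gave recovered reads, of which 76.2% of the gene values were whole (within 0.01). A further 9363 rows held no values and were left out.

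Gene sums of the scaled values, as log2(value + 0.5), entered limma 3.58.1 in R 4.3.3 (lmFit and eBayes with trend, group as the only term). Genes needed 15 reads in total and, in 5 libraries, the CPM equal to 10 reads at median library size. p-values were adjusted by Benjamini and Hochberg over all 12941 genes tested. For genes with few reads, fold changes on this scale depend on the added 0.5 and on libraries at or near 0. Uncertainty from shared reads was not modelled. Single transcripts were tested likewise (17585 transcripts). Of the 10 transcripts of the set, only those of Ucn3, Npy, Tph1 and Sox9 had enough reads, and 0 of these 4 passed. Each of these genes has 1 transcript, so the fold changes are those of the genes. Genes under the filter were tested with exact permutation in scipy 1.17.1. The fits were checked on simulated data.

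The 9 genes, the lists and the naming rule were chosen with earlier results of these data known. Named were the 9 genes, Scrt1, Ins1, Ins2, and from each list the called genes or else the gene with the smallest p, and the 2 with the highest TPM. A gene named by this rule is not reported here. Same-numbered libraries of the table deviated together (correlations 0.131 to 0.351), although the labels do not state a pairing. Each correlation was above those of its siCtrl library with other numbers, which reached at most 0.167. A fit with this number as a block is given where it changed a call, and for the sum of Npy and LOC100912228. All other SEs and intervals leave the number out. With the block, the SE was 0.0629 for Ucn3, 1.05 for Npy, 0.214 for Tph1 and 0.347 for Sox9. Other settings were other scalings, TPM, other pseudocounts, no filter, limma-voom and leaving out each library. Adding Npy to LOC100912228 and applying the settings to the lists were chosen after seeing the data. Promoter windows are from RefSeq.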

Additional observations from a re-analysis of the deposited data

Results flagged for a closer look

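In groups of 5 libraries, the gap of the highest or lowest value to its neighbour was compared with the whole range of the group. Chance alone marks about 1 in 20 groups, and 5 of 43 groups were marked. Sox9 in siCtrl replicate 1 had 1.29 CPM, while the other siCtrl libraries had 0.545 to 0.685 CPM. Tph1 in siScrt1 replicate D had 1.08 CPM, and the other siScrt1 libraries had 1.97 to 2.17 CPM. The summed mesenchymal cell markers were 16.8 CPM for siCtrl replicate 4, with 3.71 to 6.86 CPM for the rest of siCtrl. The same sum was 30.9 CPM for siScrt1 replicate D, with 4.72 to 8.74 CPM for the rest of siScrt1, and these libraries share a number in the table. The summed immune cell markers were 5.33 CPM in siScrt1 replicate B, and 3.36 to 3.85 CPM in the other siScrt1 libraries.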

How the results depend on the processing

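None of the 4 tested genes was called under any of the 19 other settings. Without the filter, Gast, Fev, Dlk1 and Neurog3 entered the fit too and were not called. Aldh1a3 was not fitted in any setting. Tph1 and Sox9 kept a positive log2 fold change in all 19 settings, from 0.23 to 0.53 and from 0.19 to 0.54 when each library was left out. Sox9 met the filter mostly through siScrt1 libraries, so its steady sign is not support for a rise. For Ucn3 the log2 fold change was -0.0042 with CPM by library total and -0.0040 with limma-voom, and it ran from -0.022 to 0.093 when each library was left out. For the Npy row the log2 fold change turned to 0.29 with CPM by library total, 0.33 with log2(TPM + 1) and 0.28 with a pseudocount of 5, and it ran from -1.05 to 1.21 when each library was left out. The sum of Npy and LOC100912228 stayed positive, from 0.22 to 0.52, over 14 settings. The number of called genes in the whole table was 136, with 259 under the replicate block and 62 to 133 when each library was left out. The cause was not tested. Of the listed genes, 1, Tead1, was called with upper-quartile factors and 1 under the replicate block, and 0 to 1 when each library was left out. No further named gene changed its call with the block. In the order by level, 0 to 2 of the 9 positions moved when a siCtrl library was left out. Gast, Dlk1, Fev, Neurog3 and Aldh1a3 had at most 15 reads in a library, which limits the precision of their values.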
